A study of Mus musculus with 6 samples.

Results

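The genes described here encode the proteins of 6 symbol families of the splicing machinery, Snrp, Sf3a, Sf3b, Lsm, Srsf and Hnrnp, measured in long-term haematopoietic stem cells (LT-HSCs) of mouse bone marrow. They were taken by symbol, with names containing "-ps" left out, and came to 63 of the 14986 genes listed. The families, and the further gene lists below, were picked with earlier results of these data known. Poly(A) RNA from 1500 sorted LT-HSCs was amplified as cDNA and sequenced in 6 libraries, 3 from wild-type mice (WT) and 3 labelled Zcchc8 KO. ZCCHC8 is a core protein of the complex that targets short-lived nuclear RNA to the RNA exosome, and the series asks what its depletion changes in the transcriptome of these cells. The sources used here do not give the strain, age or sex of the mice, how the gene was deleted, the sort gates, or whether each library came from its own animal. The p-values therefore measure the spread between these libraries, which may be technical.

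Splicing removes introns from precursor mRNA in a particle built from small nuclear RNAs and proteins. Sm proteins form a ring on the U1, U2, U4 and U5 RNAs, an LSM ring sits on U6 RNA, and SF3A and SF3B belong to the U2 particle that recognises the branch site. SR proteins and hnRNPs bind exons and introns and steer the choice of splice sites. SF3B1 and SRSF2 are recurrent mutation targets in myelodysplastic disease of blood stem cells, and loss of SRSF1 is known to favour R loops, hybrids of nascent RNA with DNA.

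Values are FPKM, fragments scaled to exon length and library size, as deposited. The reads behind them, recovered from the steps of the values, came to between 18059318 and 25709663 per library. Zcchc8 itself stood at 8.93, 5.24 and 5.16 FPKM in WT and 10.4, 5.54 and 5.92 FPKM in the libraries labelled KO (limma adjusted p = 0.935). A single value per gene does not check an exon deletion, so directions are those of the labels. All 14 LT-HSC markers were in the table, among them Procr (48.4 to 57.5 FPKM in WT, 30.01 to 46.6 in KO) and Mecom (3.84 to 5.81 and 3.01 to 4.20), and their summed level ran from 528.4 to 582.8 FPKM in WT and from 432.5 to 492.8 in KO. Summed markers of other blood cells also differed between the groups. Eosinophil markers (5 of 8 listed) ran from 1.05 to 3.25 FPKM in WT and 170.4 to 210.9 in KO, erythroid markers (9 of 11) from 117.4 to 156.4 and 438.5 to 472.7, and B cell markers (10 of 10) from 816.2 to 927.6 and 107.7 to 126.2. Markers of T and NK cells (6 of 9) ran from 198.9 to 242.2 and 351.6 to 391.9, granulocytes (11 of 11) from 3072 to 3228 and 3925 to 4337, monocytes, macrophages and dendritic cells (5 of 8) from 122.6 to 151.0 and 240.5 to 278.9, and megakaryocytes (6 of 6) from 214.3 to 312.4 and 349.3 to 389.0. No marker that the table lists was at 0 in all 6 libraries, and the part of these cells in the splicing factor values was not tested.

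No splicing factor gene passed the test between the KO and WT libraries. The test was limma on log2(FPKM + 1), run on every gene whose 6 libraries averaged 1 FPKM or more, and 62 of the 63 genes qualified. None of the 62 had an adjusted p under 0.05, where 0.228% of all 11837 tested genes did, and the smallest adjusted p was 0.378. At an unadjusted p of 0.05, 4 were higher in KO and 1 was lower, or 8.06% of the 62, beside 9.2% of all tested genes (4.87% higher and 4.33% lower). With limma-voom on the recovered reads none passed either, with a smallest adjusted p of 0.282. In that fit 8 had an unadjusted p under 0.05, or 12.9%, beside 9.28% of all genes tested. The count of 5 went to 2 without WT library 1, WT library 2 or KO library 3. This is 3.23% each time, beside 8.56%, 7.66% and 8.85% of all tested genes. By value, 40 of the 62 were higher in KO (64.5%, beside 50.2% of all tested genes) and 22 lower, and the median log2 change was 0.09, against 0.00 over all tested genes. That median was 0.05 without WT library 1 and 0.04 without WT library 2. In bulk samples, fewer cells of a type and less RNA per cell cannot be told apart.

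On the log2(FPKM + 1) scale of the test, the intervals of the change were narrow for most of the family. The 95% interval lay within 2-fold of FPKM + 1 in either direction for 57 of the 62 genes (91.9%). The same held for 53.7% of all tested genes. It lay within 1.5-fold of FPKM + 1 for 29. Those whose interval reached past 2-fold of FPKM + 1 were Hnrnpa3, Sf3a2, Snrpc, Lsm11 and Lsm14b. The intervals of low genes are wider in FPKM itself, as for Hnrnpul2 at a mean of 2.20 FPKM (-0.84 to 0.80 on this scale). Fewer genes would therefore lie within 2-fold of FPKM, a count that was not made. The splicing genes were more abundant than most, with a median of 30.3 FPKM against 7.85 over all tested genes, and the median coefficient of variation within a group was 13.4% against 27.7%. The WT and KO values did not overlap for 14 of the 62 genes, 11 higher and 3 lower in KO, or 22.6%, where 15.2% of all tested genes did not overlap (8.24% higher and 6.99% lower). With 3 libraries against 3, the smallest p of an exact two-sided permutation test is 0.1.

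**Figure D1:**
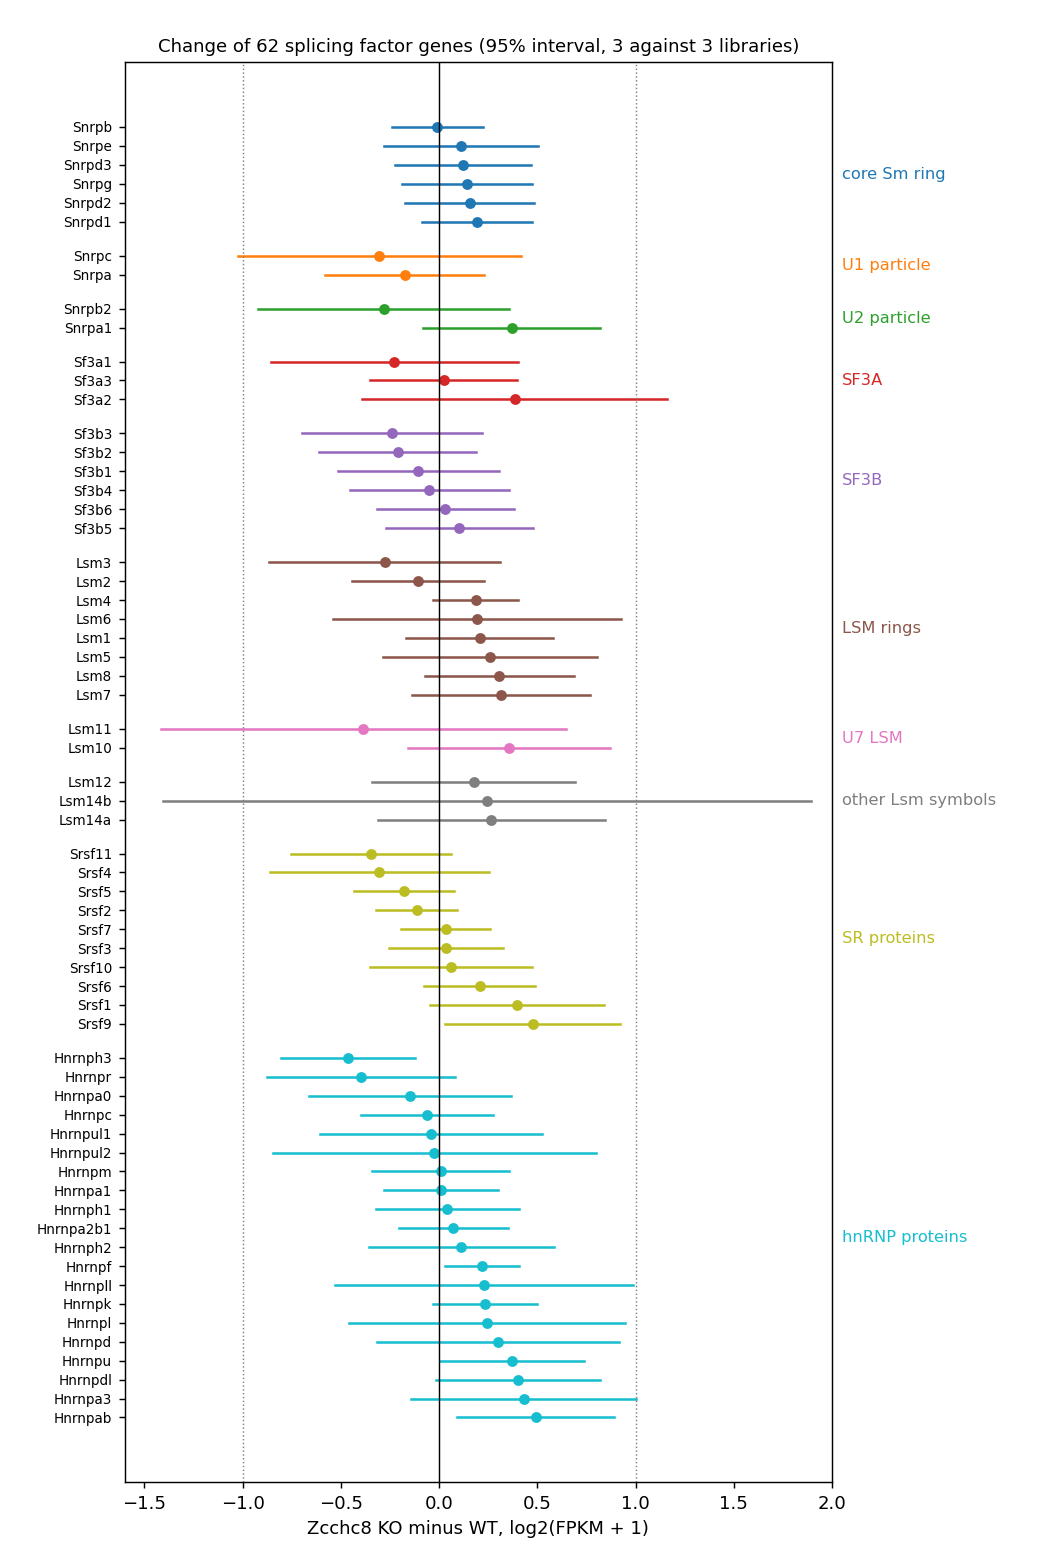
Change of each of the 62 tested splicing factor genes between Zcchc8 KO and WT libraries on the log2(FPKM + 1) scale (x axis), grouped by family. Points are limma estimates, lines their unadjusted 95% intervals from 3 against 3 libraries, and dotted lines mark 2-fold of FPKM + 1 in either direction. The estimates run from -0.46 (Hnrnph3) to 0.49 (Hnrnpab), and 5 of the intervals leave out 0.

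Among the core Sm proteins, Snrpb was by far the most abundant. The gene encodes SmB, and stood at 254.3, 231.9 and 261.5 FPKM in WT and at 277.6, 240.7 and 226.0 in KO. Its groups overlapped fully, with a log2 change of -0.01 ± 0.10 (SE), and it made up 50.5% of the summed FPKM of the family. The other ring genes Snrpd1, Snrpd2, Snrpd3, Snrpe and Snrpg had means over the 6 libraries from 35.0 to 71.8 FPKM, and each was higher in KO by value. Snrpd1, of smallest p in the family, stood at 74.2, 61.6 and 65.3 FPKM in WT and at 75.2, 75.9 and 78.3 in KO (log2 change 0.19 ± 0.12, limma adjusted p = 0.679). Every KO library lay above the WT ones, the lowest of them only just. Snrpd2, the lowest of those tested, measured 33.0 ± 1.4 FPKM in WT and 36.9 ± 2.35 in KO (SD, n = 3). The 63rd gene, Snrpn, encodes SmN, the relative of SmB known from neurons. It fell below the filter, with 1, 8 and 3 reads in WT and 0, 0 and 4 reads in KO. For each of the 6 tested ring genes the 95% interval of the change lay within 1.5-fold of FPKM + 1 in either direction.

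The proteins particular to U1 and U2 RNA had lower values. Snrpa, the U1 A protein, stood at 22.8, 26.1 and 22.1 FPKM in WT and at 21.8, 22.6 and 18.2 in KO, with overlapping groups (log2 change -0.18 ± 0.18). Snrpc, the U1 C protein that helps to hold U1 at the start of the intron, measured 7.72 ± 2.08 FPKM in WT and 6.13 ± 2.12 in KO (SD, n = 3). Snrpa1, the U2 A' protein, stood at 24.5, 22.3 and 25.5 FPKM in WT and at 24.0, 37.4 and 34.2 in KO. KO library 1 lay among the WT values and the other KO libraries above them (log2 change 0.37 ± 0.20, limma adjusted p = 0.617). Its partner Snrpb2, the U2 B'' protein, went the other way by value, from 10.9 ± 1.69 to 8.995 ± 2.82 FPKM (SD, n = 3).

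SF3A and SF3B are the protein complexes of the U2 particle that contact the branch site. None of their genes had an unadjusted p under 0.05, where 9.2% of all tested genes did. Sf3a3 stood at 23.1, 24.1 and 23.5 FPKM in WT and at 25.5, 24.8 and 21.7 in KO (log2 change 0.02 ± 0.16). Sf3a2 was the lowest of its family at 3.89 ± 1.43 and 5.28 ± 1.37 FPKM (SD, n = 3). Of its exon bases 16.1% overlap exons of Plekhj1 on the opposite strand, which was higher, at 46.3 ± 10.7 and 52.7 ± 6.88 FPKM. How many of the reads of Sf3a2 come from Plekhj1 was not tested. In SF3B the most abundant gene was Sf3b6, encoding the small subunit that touches the branch-point adenosine, at 71.4, 70.7 and 52.6 FPKM in WT and 69.8, 67.0 and 60.6 in KO. Sf3b4 was the lowest of the family at 17.7 ± 1.26 and 17.1 ± 0.549 FPKM. Sf3b3, a large scaffold subunit, stood at 21.4, 16.7 and 21.3 FPKM in WT and 17.5, 14.0 and 18.3 in KO (log2 change -0.24 ± 0.20, limma adjusted p = 0.753). Sf3b1, the subunit mutated in myelodysplastic disease, stood at 21.2, 28.1 and 26.8 FPKM in WT and at 22.7, 21.9 and 25.5 in KO, named here although the rule for named genes did not take it. The 6 SF3B genes summed to between 223.5 and 225.3 FPKM in WT and between 212.3 and 227.3 in KO.

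The LSM proteins of the nuclear and cytoplasmic rings were higher in KO by value for 6 of 8 genes. The nuclear ring, with Lsm8, binds the end of U6 RNA, and the cytoplasmic ring, with Lsm1 in its place, promotes the decapping of mRNA. Lsm4, shared by both rings, stood at 161.6, 180.2 and 184.3 FPKM in WT and at 189.9, 199.3 and 209.8 in KO, groups that did not overlap (log2 change 0.19 ± 0.10, limma adjusted p = 0.594). The ring-specific Lsm8 stood at 26.6, 29.5 and 23.0 FPKM in WT and at 29.8, 33.5 and 35.0 in KO, and Lsm1 at 25.4, 25.5 and 27.6 and at 26.2, 32.7 and 32.6. Lsm3, the lowest, stood at 12.7 ± 3.12 and 10.3 ± 2.02 FPKM (SD, n = 3). The summed FPKM of the 8 genes was 348.7, 365.6 and 355.7 in WT and 373.2, 397.5 and 423.0 in KO, of which Lsm4 made up 49.7%.

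Lsm10 and Lsm11 replace a pair of Sm proteins in the U7 particle, which cuts the ends of replication-dependent histone mRNA. Lsm10 stood at 65.9, 46.3 and 64.5 FPKM in WT and at 64.3, 105.4 and 61.6 in KO, where KO library 2 alone was outside the range of WT. Lsm11 stood at 4.71, 1.61 and 2.29 FPKM in WT and at 0.645, 2.84 and 2.49 in KO, with WT library 1 highest and KO library 1 lowest. The rule by symbol also took genes whose proteins are not splicing factors by name. Lsm12 measured 12.4 ± 2.99 and 13.9 ± 0.537 FPKM and Lsm14a, a translation repressor of cytoplasmic granules, 8.11 ± 2.002 and 9.76 ± 0.414 (SD, n = 3). Its relative Lsm14b had the widest spread of all 62, with a coefficient of variation of 92.2%. It stood at 0.421, 5.59 and 2.25 FPKM in WT and at 3.78, 0.346 and 6.86 in KO, fully overlapping (log2 change 0.24 ± 0.73).

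**Figure D2:**
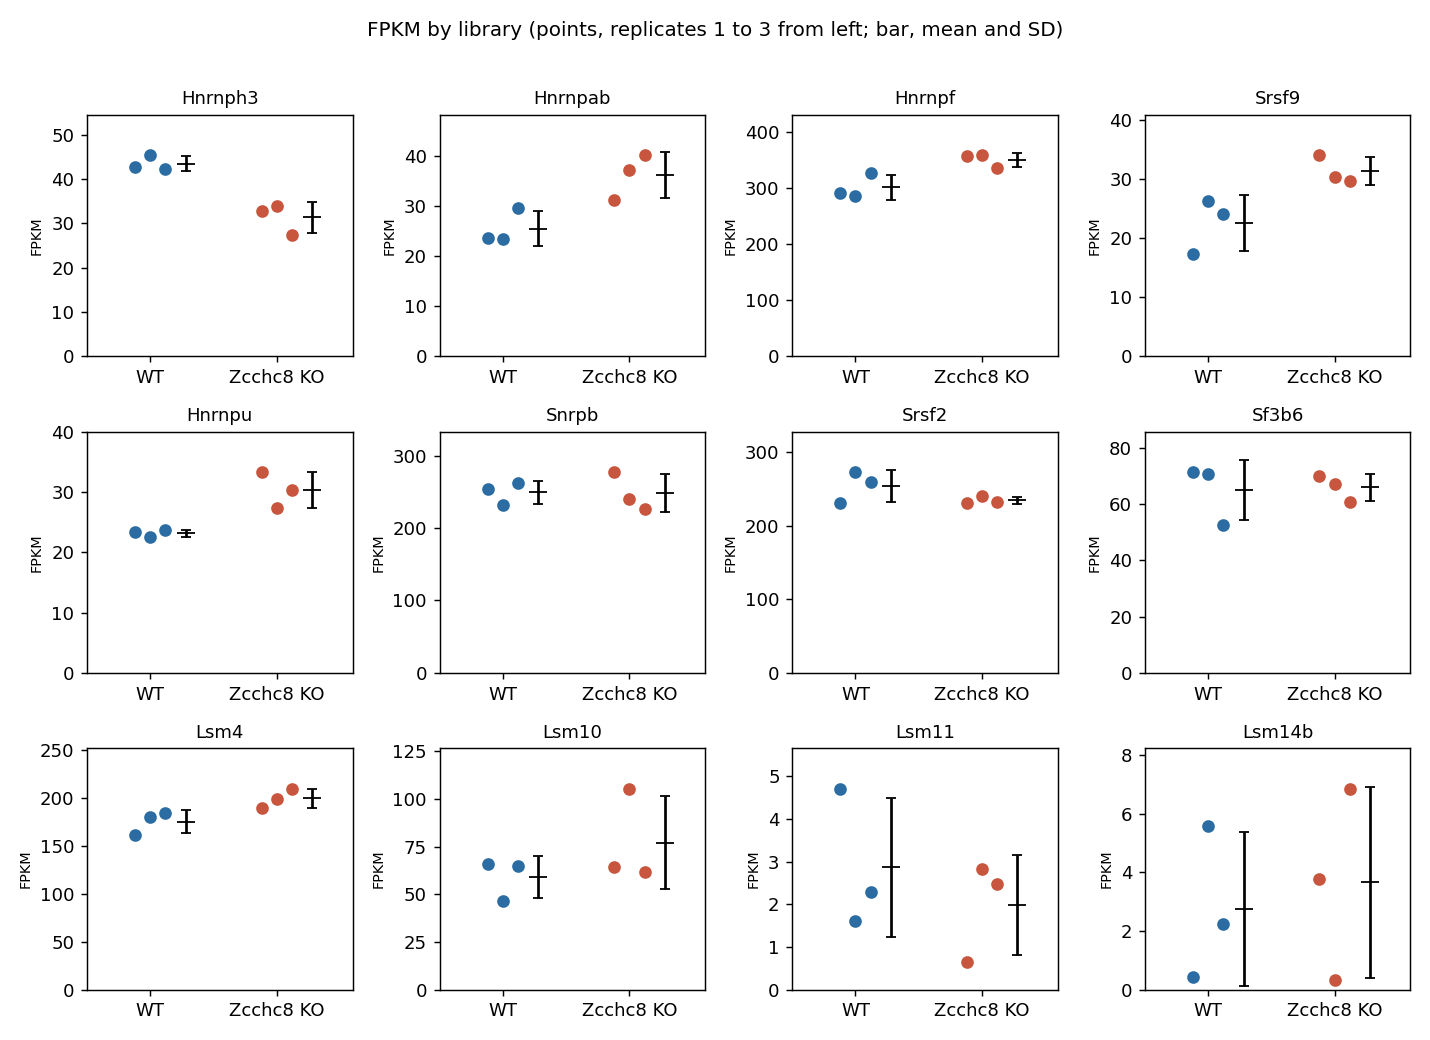
FPKM of 12 splicing factor genes in each of the 3 WT (blue) and 3 Zcchc8 KO (red) libraries, each axis starting at 0; the bar is the mean with its SD. Hnrnph3, Hnrnpab, Hnrnpf, Srsf9 and Hnrnpu have groups that do not overlap, Lsm10 stands out in KO library 2 at 105.4 FPKM, and Lsm14b ranges from 0.346 to 6.86 FPKM.

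Of the 10 SR protein genes, which bind exonic enhancers, 6 were higher and 4 lower in KO by value. Srsf2 was the most abundant, at 230.7, 272.9 and 258.6 FPKM in WT and 231.1, 240.0 and 231.7 in KO (log2 change -0.11 ± 0.09). Together with Srsf7 it made up 51.9% of the summed FPKM of the family. Srsf9 was the 1 member at an unadjusted p under 0.05, or 10%, beside 9.2% of all tested genes. It stood at 17.3, 26.3 and 24.1 FPKM in WT and 34.0, 30.4 and 29.6 in KO. Every KO library was above every WT library, by 1.39-fold in the means (log2 change 0.48 ± 0.20, limma adjusted p = 0.509). Srsf4 was the lowest, at 13.0 ± 1.95 and 10.4 ± 2.44 FPKM (SD, n = 3). Srsf1, the SR protein tied to R loops and singled out here after its values were seen, stood at 24.9, 28.1 and 27.6 FPKM in WT and at 27.8, 44.4 and 36.8 in KO. Its lowest KO value lay within the WT range, and the log2 change was 0.40 ± 0.20 (limma adjusted p = 0.587, exact two-sided permutation p = 0.2). Srsf5 was lower in every KO library (103.2, 101.2 and 118.1 against 96.3, 90.1 and 97.2 FPKM).

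The hnRNP genes held 4 of the 5 members at an unadjusted p under 0.05 and 8 of the 14 with groups that did not overlap. These are 20% and 40% of the 20 genes, beside 9.2% and 15.2% of all tested genes. Hnrnph3, of the family that binds runs of G (chromosome 10, 63014664 to 63024217, minus strand), stood at 42.8, 45.4 and 42.3 FPKM in WT and at 32.8, 33.9 and 27.4 in KO. The lowest WT library was above the highest KO library, and the WT mean was 1.39-fold the KO mean (log2 change -0.46 ± 0.15, limma adjusted p = 0.378). Its close relative Hnrnph1, named after its values were seen, stood at 24.1, 25.0 and 24.0 FPKM and at 25.2, 23.2 and 27.0. Hnrnpf, of the same family and the most abundant splicing factor gene of all (chromosome 6, 117900324 to 117925622, plus strand), stood at 291.5, 285.5 and 326.6 FPKM in WT and 356.5, 358.9 and 335.1 in KO (1.16-fold, log2 change 0.22 ± 0.08, limma adjusted p = 0.481). Hnrnph2, also named after its values were seen, stood at 41.5, 38.8 and 59.6 FPKM in WT and at 55.4, 39.6 and 55.7 in KO (log2 change 0.11 ± 0.21). Within this small group of relatives the WT and KO values of Hnrnph3 and Hnrnpf did not overlap, with opposite signs, and those of Hnrnph1 and Hnrnph2 did, while the differences between the genes were not tested.

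Hnrnpab, an A/B-type hnRNP (chromosome 11, 51600100 to 51606847, minus strand), stood at 23.5, 23.4 and 29.5 FPKM in WT and at 31.2, 37.2 and 40.2 in KO. This was the highest fitted change of the 62 genes (1.42-fold, log2 change 0.49 ± 0.18, limma adjusted p = 0.441). Of its annotated exon bases 29.1% overlap exons of Phykpl on the opposite strand, which measured 3.04 ± 1.16 and 2.89 ± 0.644 FPKM (SD, n = 3). Hnrnpu, the scaffold attachment factor that binds nuclear RNA and chromatin (chromosome 1, 178321108 to 178337797, minus strand), stood at 23.4, 22.5 and 23.6 FPKM in WT and at 33.4, 27.3 and 30.4 in KO (log2 change 0.37 ± 0.16, limma adjusted p = 0.536). It overlaps Cox20 on the other strand over 6.93% of its exon bases. Hnrnpul2 was the lowest of the family at 2.20 ± 0.696 and 2.19 ± 0.941 FPKM (SD, n = 3). The sources used here do not say whether reads were counted by strand, so the reads of such overlapping pairs cannot be told apart.

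Of the 5 genes at an unadjusted p under 0.05, Hnrnph3 stayed under it in 14 of 14 other settings or left-out libraries, Hnrnpab in 10, Hnrnpf in 8, Srsf9 in 6 and Hnrnpu in 5. With voom, Hnrnpr and Srsf11 were also lower and Hnrnpk and Hnrnpdl higher at an unadjusted p under 0.05. Hnrnpr stood at 11.4, 12.6 and 11.8 FPKM in WT and at 8.19, 9.44 and 8.85 in KO, with no overlap, and Hnrnpk at 75.2, 67.7 and 64.7 and at 82.1, 80.8 and 81.4. Both were named after their values were seen. The 20 hnRNP genes summed to 897.1, 905.3 and 996.4 FPKM in WT and to 1034, 999.1 and 1010 in KO.

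**Figure D3:**
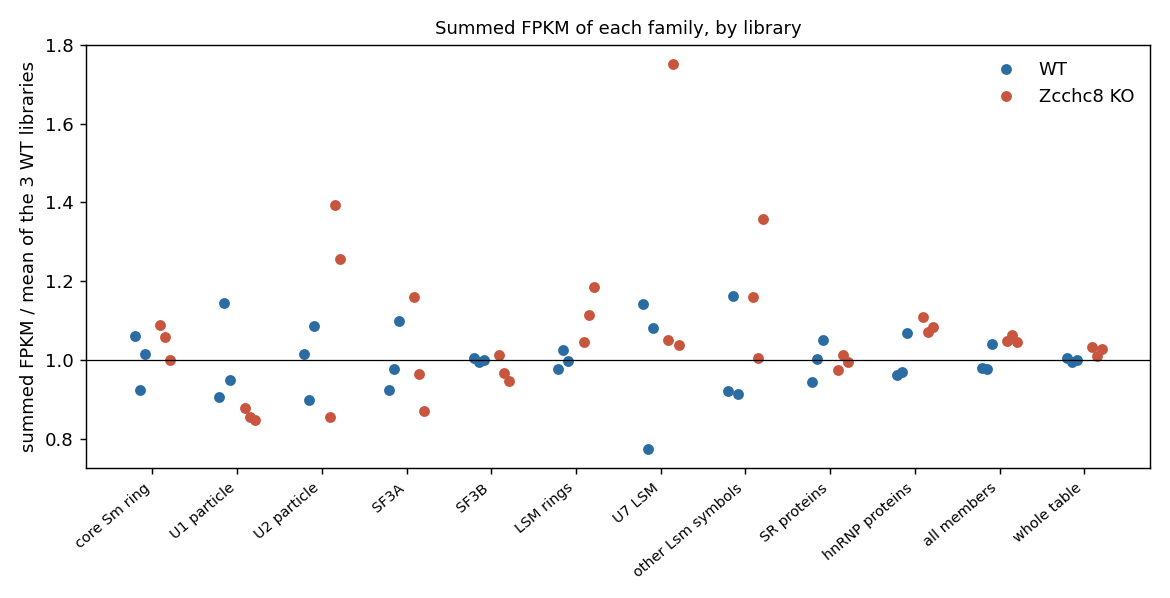
Summed FPKM of each family in each library, divided by the mean of the 3 WT libraries (y axis, not starting at 0), for WT (blue) and Zcchc8 KO (red), with the sum over all 63 genes and over the whole table. KO libraries lie above all WT libraries for the LSM rings and the hnRNP proteins, but also for all 63 genes and for the whole table. They lie below them for U1 (Snrpa and Snrpc). For the hnRNP proteins the highest WT sum is 996.4 FPKM and the lowest KO sum 999.1, and the whole table is 1.02-fold higher in KO. No test was made on sums.

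All 63 genes summed to between 2935 and 3120 FPKM in WT and between 3137 and 3192 in KO, a ratio of means of 1.05, while the whole table gave 1.02. As a share of the table they were 0.508% ± 0.0179 in WT and 0.522% ± 0.0108 in KO (SD, n = 3). The sums of the U1 genes Snrpa and Snrpc were 28.4, 35.9 and 29.8 FPKM in WT and 27.6, 26.8 and 26.6 in KO. Snrpa made up 76.3% of this sum, and for each gene alone the WT and KO values overlapped.

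How each level reads depends on the annotated length. FPKM divides reads by all annotated exon bases of a gene, and for 18 of the 62 tested genes these came to more than 3 times the length of the median coding transcript in GENCODE M21. The ratio was highest for Hnrnpr, with 22199 exon bases and a median coding transcript of 2543, or 8.73 times. Its 10.4 FPKM stood for 4561 reads on average, close to the 4558 reads of Sf3b2 at 33.7 FPKM. Orders of level between genes rest on this length. A long exon length also lowers the FPKM that enters log2(FPKM + 1): the log2 change of Hnrnpr was -0.40 there and -0.45 with voom on reads.

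Many of these genes have copies among the pseudogenes of the genome, and several copies carried high values in the table. A processed copy is made by reverse transcription of mRNA and so lacks introns. A pseudogene of GENCODE M21 or RefSeq was counted as a copy where at least 20% of its 31-base words occur in a coding transcript of the gene. Whether a copy is processed was not checked, other than at exon junctions for Gm7935, Srsf3-ps and Gm6159. There were 90 such copies of 25 splicing factor genes, 30 of them of Hnrnpa3, and 16 copies of 9 genes were in the table. For 5 of the 16 the FPKM was above that of the parent gene, among them Gm5802, a copy of the nearly silent Snrpn. In reads, which are not divided by exon length, Gm7935 and Gm5802 were above their parents and Gm6159, Gm8587 and Srsf3-ps below. Gm7935, a copy of Sf3b4 (chromosome 15, 74080234 to 74081511, minus strand), stood at 87.2, 96.8 and 81.0 FPKM in WT and at 94.5, 98.0 and 75.8 in KO. That is 5.11 times the level of Sf3b4, and in reads 2288 against 756 on average. Gm6159, a copy of Hnrnpr (chromosome 1, 78783136 to 78784859, minus strand), stood at 80.5, 77.0 and 74.3 FPKM in WT and at 50.7, 90.8 and 60.3 in KO, or 2456 reads against 4561.

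Sequences around exon junctions show how alike a copy and its parent are, and are given because the aligner named in the submitters' notes, Bowtie2, does not split a read over an intron. Each parent line holds 60 bases of coding sequence in GENCODE M21, with the last 30 bases of one exon in lower case and the first 30 of the next in capitals. Each copy line is the matching stretch of the copy's own transcript in GENCODE M21, where capitals would mark a base that differs. Each pair is a coding junction of the gene with the fewest mismatches to the copy.
Sf3b4 exons 1 and 2: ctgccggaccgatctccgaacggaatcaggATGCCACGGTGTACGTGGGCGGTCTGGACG
Gm7935: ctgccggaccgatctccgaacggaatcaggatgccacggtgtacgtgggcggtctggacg
Srsf3 exons 2 and 3: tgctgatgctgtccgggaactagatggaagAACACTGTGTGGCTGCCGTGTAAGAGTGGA
Srsf3-ps: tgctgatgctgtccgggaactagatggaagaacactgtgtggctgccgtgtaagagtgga
Hnrnpr exons 10 and 11: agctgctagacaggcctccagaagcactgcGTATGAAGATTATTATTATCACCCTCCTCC
Gm6159: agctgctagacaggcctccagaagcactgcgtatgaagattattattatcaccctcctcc

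All 3 pairs matched at each of the 60 bases. In the genome an intron of 363 bases parts the Sf3b4 exons (chromosome 3, between exon bases 96172607 and 96172971), one of 2041 bases the Srsf3 exons (chromosome 17, between 29036448 and 29038490), and one of 121 bases the Hnrnpr exons (chromosome 4, between 136339297 and 136339419). The copies hold the same 60 bases without a gap, at chr15:74081448-74081507, chr11:98625313-98625372 and chr1:78783705-78783764, all on the minus strand. With up to 6 mismatches allowed in 60 bases, Gm7935 held 5 of 5 coding junctions of Sf3b4, Srsf3-ps 3 of 3 of Srsf3, and Gm6159 7 of 9 of Hnrnpr. Srsf3-ps, which GENCODE M21 lists as Gm12355, stood at 108.0, 98.9 and 122.0 FPKM in WT and at 107.2, 112.5 and 100.8 in KO, and Srsf3 itself at 58.3, 60.5 and 66.0 and at 60.4, 68.7 and 60.4. In reads the order was the other way, at 2853 for Srsf3-ps and 9902 for Srsf3 on average. How much of the copies' value is read from mRNA of the parent genes was not tested.

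Beside their parents, the copies gave these values in the comparison of KO with WT. None of the 13 tested copies had an unadjusted p under 0.05 (limma), where 9.2% of all tested genes did. Gm12435, a copy of Hnrnpf, measured 113.4 ± 10.1 FPKM in WT and 130.7 ± 2.98 in KO (SD, n = 3), a log2 change of 0.21 ± 0.11 beside 0.22 ± 0.08 for Hnrnpf. Gm7803, another copy of Hnrnpf, had 0.25 ± 0.19. Gm8587 and Gm21559, copies of Snrpa, had -0.18 ± 0.14 and -0.30 ± 0.22, beside -0.18 ± 0.18 for Snrpa. Gm6159 had -0.24 ± 0.20 beside -0.40 ± 0.21 for Hnrnpr. Gm6161, Gm6254 and Gm9242, copies of Hnrnpa3, had 0.58 ± 0.31, 0.50 ± 0.34 and 0.21 ± 0.31, beside 0.43 ± 0.25 for Hnrnpa3. Gm2531 had 0.15 ± 0.52 beside 0.19 ± 0.32 for Lsm6. Other copies had the opposite sign to the parent: Gm14052 had -0.28 ± 0.57 beside 0.43 ± 0.25 for Hnrnpa3, Gm7935 had 0.01 ± 0.14 beside -0.05 ± 0.18 for Sf3b4, and Srsf3-ps had -0.03 ± 0.12 beside 0.04 ± 0.13 for Srsf3. Copies and parents can share reads, so their values are not independent.

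**Figure D4:**
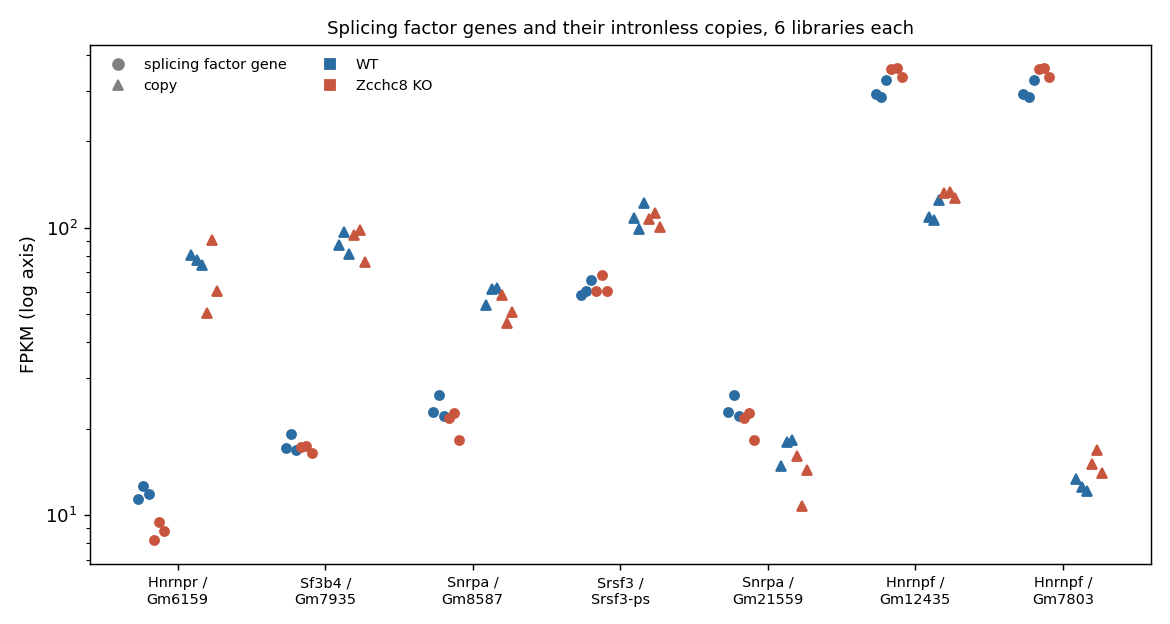
FPKM (log axis) of splicing factor genes (circles) and of their pseudogene copies with a mean above 10 FPKM (triangles), for 3 WT (blue) and 3 Zcchc8 KO (red) libraries. The title calls the copies intronless, which was looked at only for Gm7935, Srsf3-ps and Gm6159, at coding junctions. The copies Gm6159, Gm7935, Gm8587 and Srsf3-ps lie above their parent gene in every library, by 6.97, 5.11, 2.49 and 1.73 times in the mean FPKM; in mean reads Gm7935 alone of these is above its parent (2288 against 756).

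The promoters of these genes were compared with those of other genes as a feature that the choice by symbol did not use. RefSeq promoters on GRCm38.p6, from 250 bases before to 50 after the start, were matched for 54 of the 63. Only the first window listed for a symbol was kept, and whether it is the start used in these cells was not tested. The ETS core, CCGGAA on either strand, occurred in 24 of the 54 (44.4%), in 30.97% of 8535 promoters of tested genes and in 15.2% of all 27025. The GC box GGGCGG occurred in 74.1%, 64.9% and 35.9%, the CCAAT box in 48.1%, 40.2% and 37.9%, and TATAAA in 11.1%, 6.89% and 14.2%. The median number of CG pairs in the window was 24.5, against 21 in tested genes and 7 in all. Below are the promoters of Hnrnph3 (chr10:63023800-63024099, minus strand), the member of smallest p, and of its relative Hnrnpf (chr6:117900090-117900389, plus strand), which had the opposite sign, with the ETS core in capitals.
Hnrnph3: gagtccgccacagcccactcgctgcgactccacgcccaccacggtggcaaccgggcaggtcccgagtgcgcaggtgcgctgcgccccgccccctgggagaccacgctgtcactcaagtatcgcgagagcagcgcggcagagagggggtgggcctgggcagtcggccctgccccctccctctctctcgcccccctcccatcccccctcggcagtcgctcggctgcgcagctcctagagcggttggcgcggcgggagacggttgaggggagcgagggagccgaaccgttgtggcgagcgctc
Hnrnpf: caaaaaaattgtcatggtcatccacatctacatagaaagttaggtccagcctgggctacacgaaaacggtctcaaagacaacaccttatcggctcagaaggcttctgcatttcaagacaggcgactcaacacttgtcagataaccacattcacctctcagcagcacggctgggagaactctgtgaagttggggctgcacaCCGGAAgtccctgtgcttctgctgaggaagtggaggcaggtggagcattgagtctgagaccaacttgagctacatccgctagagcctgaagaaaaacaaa

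Hnrnph3 holds 32 CG pairs and no ETS core in this window, and Hnrnpf 7 CG pairs and 1 ETS core. Srsf9, Hnrnpab and Hnrnpu, which like Hnrnpf were higher in KO at an unadjusted p under 0.05 (limma), hold 32, 28 and 41 CG pairs. Their windows have 0, 1 and 1 ETS cores. A link of these letters with the direction of change was not tested. A match of letters is a description of the sequence and not a shown binding site.

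Of 6 further lists around splicing, none had a gene that passed the test over all genes, by limma on log2(FPKM + 1) or by voom. Among 75 tested proteins of the spliceosome outside the families, 1 was higher and 2 were lower at an unadjusted p under 0.05, or 4%, beside 9.2% of all tested genes (4.87% higher and 4.33% lower). Dhx8, the helicase that releases the spliced mRNA, stood at 7.88, 8.09 and 6.76 FPKM in WT and at 3.98, 3.44 and 3.92 in KO, with no overlap (log2 change -0.84 ± 0.26, limma adjusted p = 0.34). Txnl4b measured 41.3 ± 16.7 and 22.6 ± 7.40 FPKM, and Ctnnbl1, bound to the Prp19 complex, 17.7 ± 4.35 and 25.2 ± 0.532 (SD, n = 3). Of 36 tested regulators of alternative splicing 5 were higher and 1 lower, or 16.7%, beside the same 9.2% (4.87% and 4.33%). Pcbp1, which binds runs of C, stood at 186.4, 135.5 and 160.4 FPKM in WT and at 236.4, 244.1 and 252.5 in KO, well apart (log2 change 0.61 ± 0.12, limma adjusted p = 0.129). Ybx1, a cold-shock domain protein, stood at 48.4, 75.1 and 68.4 FPKM in WT and at 92.7, 96.7 and 92.0 in KO (limma adjusted p = 0.325), and Khdrbs1, encoding SAM68, at 22.8, 21.4 and 26.0 and at 29.4, 37.3 and 33.3.

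In the other 4 lists no gene had an unadjusted p under 0.05, where 9.2% of all tested genes did. Of 7 tested SR protein kinases, which phosphorylate the SR proteins, Clk1 stood at 33.7 ± 6.09 and 25.8 ± 4.13 FPKM (SD, n = 3), Clk4 at 14.4 ± 2.73 and 11.7 ± 1.31 and Clk3 at 4.29 ± 0.532 and 5.71 ± 2.21. In the list of 16 genes that assemble the Sm ring, Tgs1, which trimethylates the cap of small nuclear RNA, stood at 12.6, 12.6 and 13.1 FPKM in WT and at 10.9, 8.66 and 9.25 in KO. Gemin7 measured 81.0 ± 8.85 and 63.6 ± 21.2 FPKM and Smn1, the survival motor neuron gene, 4.33 ± 2.61 and 6.94 ± 1.57. Among 9 tested partners of the cytoplasmic LSM ring, Dcp1a, a decapping cofactor, measured 3.93 ± 1.19 and 2.44 ± 0.750 FPKM, Eif4enif1 7.20 ± 3.12 and 4.98 ± 1.06, and Edc3 20.3 ± 3.44 and 17.5 ± 3.81. Among 5 tested partners of the U7 particle, Cpsf2 measured 12.6 ± 1.91 and 17.5 ± 3.07 FPKM, Slbp, the histone stem-loop binding protein, 23.5 ± 6.48 and 29.7 ± 5.28, and Cstf2 4.52 ± 0.775 and 6.38 ± 1.64. Values summed over a gene show neither isoforms nor splicing itself.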

How the data were processed

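RNA from 6 samples was analysed, 3 WT and 3 Zcchc8 KO, grouped and numbered by their titles. The values are FPKM per gene symbol, as the authors deposited them in 1 table. Per the submitters' processing notes, fastp, Bowtie2 and featureCounts were used with build mm10. The sources used here do not give versions, whether strand was used, or how reads matching several places were handled. The splicing genes and the gene lists were chosen with earlier results of these data known.

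GENCODE M21 (GRCm38, the assembly of mm10) gave positions and exon lengths for 14671 symbols (97.9%). FPKM times exon length was read as multiples of 1 step per library, and between 97.9% and 98.3% of values below 100 reads came out whole within 0.05. Amplified reads without molecular identifiers are not independent molecules. Genes with a mean FPKM of at least 1 were tested on log2(FPKM + 1), a scale on which changes of low genes come out too small, with limma 3.58.1 in R 4.3.3 (lmFit, eBayes with a variance trend, two-sided, Benjamini-Hochberg over 11837 genes, threshold 0.05). Fold changes are ratios of mean FPKM.

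Named genes are those with an unadjusted p under 0.05, the highest, the lowest and that of smallest p in each family, genes below the filter, and the 3 of smallest p in each further list; Lsm1, Lsm8 and Srsf5 and the genes marked in the text were added after their values were seen. In 10 simulated tables of 11837 genes with 200 changed, all above 5 FPKM, the test found 33.8% of changes of log2 size 1 and 80% of those of size 2, and 4.29% of its calls were false. The changed genes were drawn at random from all tested genes at that level. The splicing genes varied less (median coefficient of variation 13.4% against 27.7%), and the share found among them was not simulated. Alternatives changed the pseudocount, filter, scaling, variance trend, replicate block, test (voom) and libraries used. Python 3.11.15 and matplotlib 3.10.9 were used.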

Additional observations from a re-analysis of the deposited data

How the results depend on the processing

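In 14 alternatives no splicing factor gene had an adjusted p under 0.05, the smallest adjusted p per alternative lying between 0.282 and 0.580, and no gene of the 6 further lists did. The number of all tested genes past the threshold, 27, went to 8 without the variance trend, 8 with voom on recovered reads and 11 with the replicate block, and ran from 11 to 19 with 1 library left out. The number of splicing genes at an unadjusted p under 0.05, 5, went to 2 under quantile normalization, 3 without the variance trend, 3 with the replicate block and 8 with voom, and from 2 to 4 with 1 library left out. In the same order these are 3.23%, 4.84%, 4.84% and 12.9%, beside 8.96%, 8.53%, 8.82% and 9.28% of all tested genes. With 1 library left out they are 3.23% to 6.45%, beside 7.66% to 8.95%. The median log2 change of the splicing genes, 0.088, went to 0.057 under quantile normalization and ran from 0.043 to 0.097 with 1 library left out. The causes were not tested. Of 27 named splicing genes 21 kept their sign in the alternatives. The others had changes near 0 or wide spreads: under quantile normalization Sf3b6 went to -0.0062 and Hnrnpul2 to 0.029, and with voom Snrpb went to 0.0024. With 1 library left out Snrpb ran from -0.094 to 0.054, Sf3b6 from -0.11 to 0.11, Hnrnpul2 from -0.24 to 0.18, Sf3b4 from -0.084 to 0.0044, Sf3a3 from -0.021 to 0.092 and Lsm14b from -0.32 to 0.97. The labels do not say whether a replicate number marks a shared animal, litter or day. Deviations of same-numbered WT and KO libraries correlated at 0.024, 0.0071 and 0.0037, which cannot settle this with 3 libraries per group. A left-out library leaves 2 in its group.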

Other observations

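Lsm14b and Lsm11 varied widely between libraries of the same group. Lsm14b was read 22, 296 and 123 times in WT and 281, 19 and 413 times in KO, with the lowest library of each group far below the others. Lsm11 was read 549, 190 and 279 times in WT and 107, 347 and 334 times in KO. KO library 1, lowest for Lsm11, is the most deeply read library. Of the 62 tested genes, 7 had a coefficient of variation within groups above 30%.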
